A study of Caenorhabditis elegans with 12 samples.

Results

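The genes described here are 83 *C. elegans* loci that encode enzymes and carriers of fatty acid metabolism. They were chosen by name alone, as every locus with a gene of the *fat*, *elo*, *acs*, *cpt*, *acdh*, *ech*, *hacd*, *lipl* or *lbp* series, from 41420 loci of which 21204 had at least 1 count. Messenger RNA was sequenced from whole late L4 worms that had spent 6 h on hypertonic agar plates with 200 mM NaCl or on control plates with 51 mM NaCl. There were 4 libraries of *osm-9(ok1677)* and 2 libraries of wild type N2 Bristol at each NaCl concentration. The *ok1677* strain, VC1262, carries a deletion in *osm-9*, which encodes a TRPV cation channel of chemosensory neurons, and its worms are defective in their avoidance of hypertonic environments. It is a single deletion strain that develops slightly more slowly than N2. Larvae of both strains were synchronized and then staged by eye, and the study states that staging allowed for this delay. Its authors saw no molting and no gravid adults after the exposure.

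Fatty acids are made and remodelled by desaturases (FAT) and elongases (ELO), which together give worms their polyunsaturated and branched-chain fatty acids. Before use, a fatty acid is joined to coenzyme A by an acyl-CoA synthetase (ACS), carried into mitochondria through carnitine palmitoyl transferases (CPT) and shortened by acyl-CoA dehydrogenases (ACDH), enoyl-CoA hydratases (ECH) and hydroxyacyl-CoA dehydrogenases (HACD). Lysosomal acid lipases (LIPL) release fatty acids from stored fat, and small lipid-binding proteins (LBP) carry them between compartments. In the worm most of this work is done by the intestine, which is also the main fat store.

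Levels are given as CPM, the count of a locus as a share of its library's TMM-scaled total, and differences as log2 fold changes with their standard errors from edgeR's quasi-likelihood test, with Benjamini-Hochberg adjustment of p over all 15403 loci tested. A gene is said to have risen or fallen only where that adjusted p was 0.05 or less. Of the 83 genes, 82 had enough counts to be tested. The remaining one, *lipl-8*, had between 0 and 2 counts in every library, under a floor set at 3 counts. Positions are those of the WS235 assembly, which has the coordinates of WBcel235.

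Library totals lay between 15949889 and 21418277 counts, so that 3 counts correspond to between 0.137 and 0.186 CPM. This floor covers counting error only. The *osm-9* locus itself had 1.87, 2.60, 2.34 and 1.31 CPM in *osm-9(ok1677)* worms at 51 mM NaCl, against 0.846 and 0.719 CPM in N2. On 200 mM NaCl plates it had 1.63, 1.34, 2.07 and 1.97 CPM in *osm-9(ok1677)* worms, against 1.23 and 1.82 CPM in N2. A count over the whole locus does not test a deletion inside it, and *osm-9(ok1677)* below stands for the libraries labelled so. Libraries 2 and 3 of this strain stood apart. Summed over 6 yolk protein genes, which late larvae switch on as they become adults, they had between 8036 and 14558 CPM at the 2 concentrations, whereas libraries 1 and 4 had between 28761 and 35373 CPM and N2 between 36824 and 44795 CPM. Summed over 13 molting genes they had between 580.1 and 1021 CPM, libraries 1 and 4 between 294 and 542 CPM, and N2 between 205 and 374 CPM. Counts of members by comparison and by family are therefore also given without these libraries, except for those of fits with a replicate block. The 9 intestinal markers were all detected, and none of them passed the test between strains. They summed to between 3058 and 4684 CPM in *osm-9(ok1677)* worms and between 3863 and 6883 CPM in N2. Yet 8 of their 9 fold changes between strains lay below 0 at each concentration, with medians of -0.34 at 51 mM and -0.31 at 200 mM NaCl. Without *osm-9(ok1677)* libraries 2 and 3 the medians were -0.48 and -0.4. In whole worms, fewer cells of a type and less RNA per cell cannot be told apart.

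Per kilobase of exon, the scale on which different genes can be compared, the most abundant member was *acdh-1* with a mean of 1245 CPM per kb over the 12 libraries, followed by *fat-2* with 900.3 CPM per kb. The highest of the lipid-binding proteins was *lbp-6* (627 CPM per kb), of the enoyl-CoA hydratases *ech-6* (573 CPM per kb) and of the elongases *elo-1* (432 CPM per kb). The leading acyl-CoA synthetase, *acs-19*, the leading lipase, *lipl-5*, and the leading carnitine palmitoyl transferase, *cpt-1*, were at 128, 148 and 72.3 CPM per kb, and the only *hacd* gene, *hacd-1*, was at 80.5 CPM per kb. The 83 loci together took 1.16 to 1.33% of the normalised counts in *osm-9(ok1677)* worms and 1.38 to 1.49% in N2 at 51 mM NaCl. At 200 mM NaCl their share was 1.13 to 1.32% in *osm-9(ok1677)* worms and 1.37 to 1.46% in N2. The ranges of the strains did not overlap at either concentration, but at 200 mM NaCl this rests on the 6 members whose locus also holds another gene. Without them the sums at 200 mM NaCl were 9569 to 11009.9 CPM in *osm-9(ok1677)* worms and 10941 to 11574 CPM in N2, which overlap. At 51 mM NaCl the sums without them were 9662 to 11295 CPM in *osm-9(ok1677)* worms and 11309 to 11848 CPM in N2, which narrowly do not. Of the families, the dehydrogenases differed most in CPM, and the 13 *acdh* loci summed to 2460.1 to 2838 CPM in *osm-9(ok1677)* worms and 3667 to 4401 CPM in N2 at 51 mM NaCl. The sum of the 7 desaturases went the other way, with 2986 to 3928 CPM in *osm-9(ok1677)* worms and 2274 to 2679 CPM in N2. Single genes weigh heavily in these sums. The mean of *acdh-1* was 1866 CPM in *osm-9(ok1677)* worms and 2905 CPM in N2, and that of *fat-2* was 1355 and 758 CPM. Of the 7 desaturase fold changes at 51 mM NaCl, 6 lay above 0 and 1 below.

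The first question put to these genes is how *osm-9(ok1677)* worms differ from N2 at each NaCl concentration. At 51 mM NaCl, 7 of the 82 genes tested were higher and 8 were lower in *osm-9(ok1677)* worms. Of all loci tested, 7.64% were higher and 4.63% were lower in this comparison. At 200 mM NaCl, 6 genes were higher and 11 lower, against 4.13% and 2.3% of all loci. The median log2 fold change of the 82 genes was -0.12 at 51 mM and -0.20 at 200 mM NaCl, and that of all loci was 0.05 at both. In all 22 genes passed in 1 or both comparisons, and the 10 that passed in both kept their direction (5 higher and 5 lower). Without *osm-9(ok1677)* libraries 2 and 3, 8 genes were higher and 17 lower at 51 mM NaCl, against 6.28% and 10.8% of all loci, and 8 were higher and 19 lower at 200 mM NaCl, against 4.78% and 9.3% of all loci. The calls depend in part on single N2 libraries, of which there were 2 at each concentration. A fit without 1 of them has 1 N2 library left in that group. No share of all loci is given for such fits, so their counts are not read as a result about these genes. When each of the 12 libraries was left out in turn, 3 of the 15 calls at 51 mM NaCl (*acdh-2*, *fat-2* and *lipl-6*) and 3 of the 17 at 200 mM NaCl (*acdh-2*, *cpt-3* and *hacd-1*) passed every time.

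A fit with the replicate number as a block links the strains through only 2 shared numbers, which no label says mark a common experiment. In it 13 members were higher and 23 lower at 51 mM NaCl, where 15.3% and 11.1% of all loci were, and 11 were higher and 26 lower at 200 mM NaCl, where 9.7% and 9.37% were. Genes described below as not passing that passed in this fit include *fat-7* (log2 1.05 and 1.08 at 51 and 200 mM NaCl, adjusted p = 0.000739 and 0.000956), *acs-2* (-0.65 and -1.03, adjusted p = 0.00766 and 0.000955) and *acdh-8* (-0.72 and -0.68, adjusted p = 0.00283 and 0.00564). At 51 mM NaCl alone these include *elo-5* (-0.85, adjusted p = 0.0087), *acs-20* (1.14, adjusted p = 0.00102) and *acdh-6* (1.48, adjusted p = 0.0101).

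**Figure D1:**
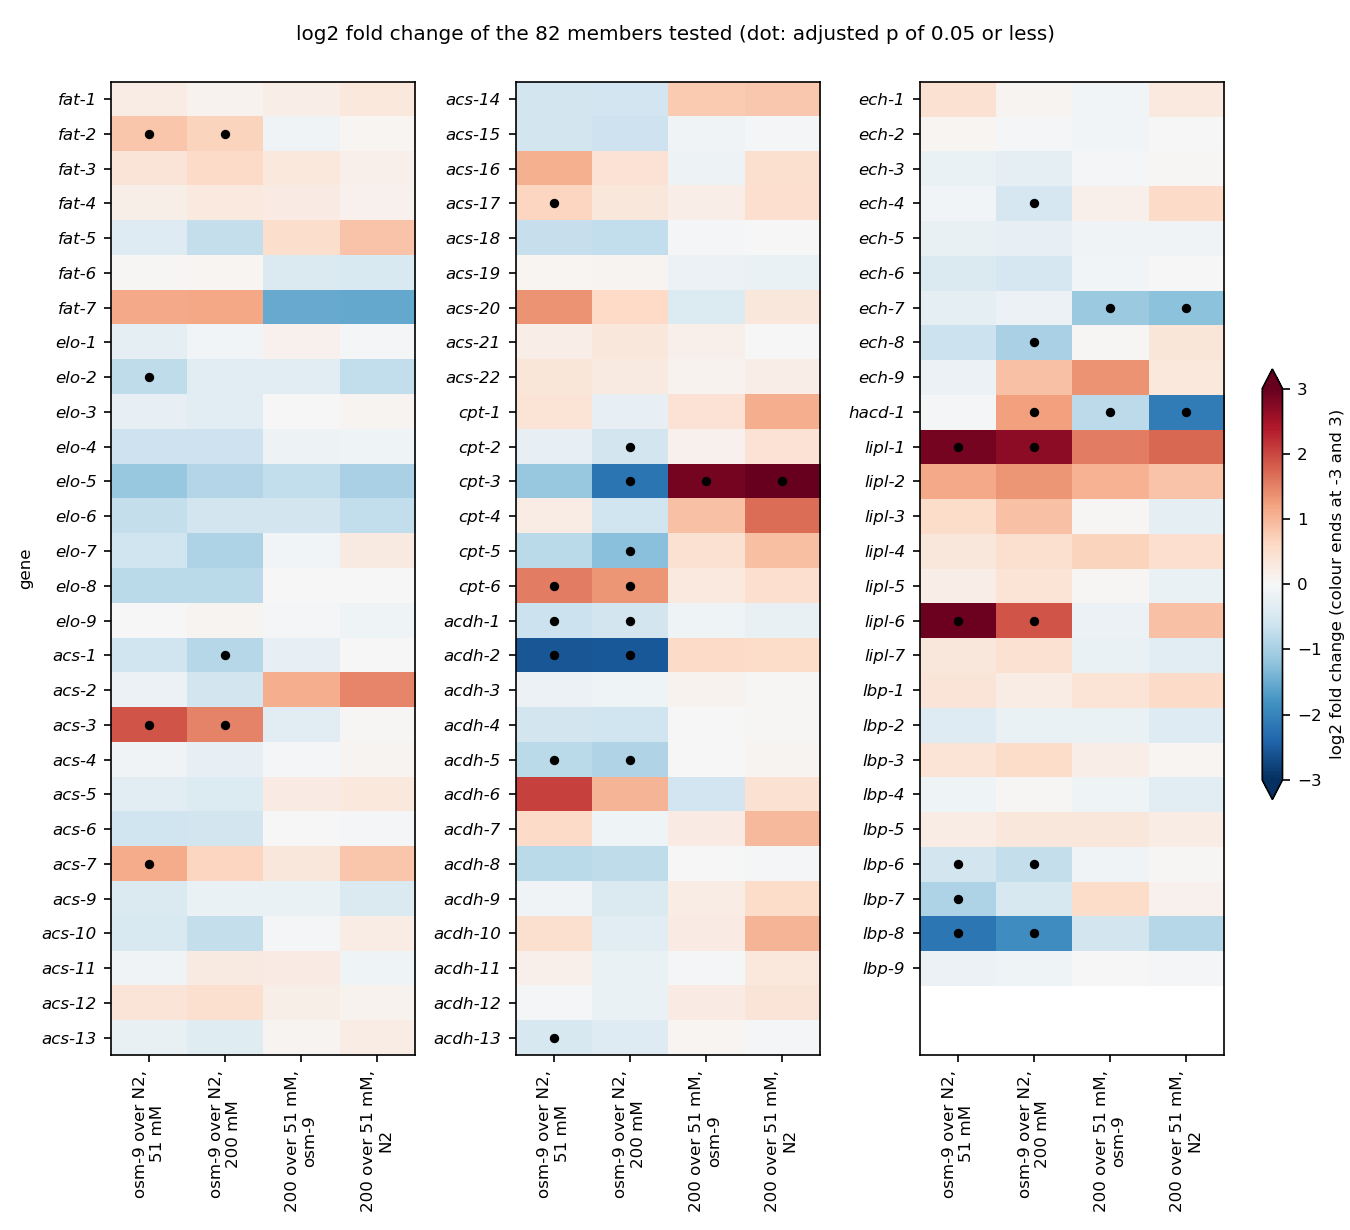
Log2 fold changes of the 82 genes tested, 1 row a gene in the order of the families, for *osm-9(ok1677)* over N2 at 51 and 200 mM NaCl and for 200 over 51 mM NaCl in each strain. Black dots mark an adjusted p of 0.05 or less, and colour ends at -3 and 3. The strain columns hold 15 and 17 dots and each NaCl column 3, those of *cpt-3*, *ech-7* and *hacd-1*.

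Among the desaturases only *fat-2* passed the test in either strain comparison, and it rose in both. FAT-2 makes linoleic acid from oleic acid, the entry point of polyunsaturated fatty acid synthesis. The gene (chromosome IV, 13323873 to 13326395) had 1373, 1310.4, 1288 and 1447 CPM in *osm-9(ok1677)* worms at 51 mM NaCl, against 781 and 735 CPM in N2, and 1375, 1151, 1349.5 and 1166 CPM at 200 mM NaCl, against 747 and 836 CPM in N2. Every *osm-9(ok1677)* library lay above every N2 library. The increase was 1.79-fold at 51 mM NaCl (log2 0.84, SE 0.12, adjusted p = 0.00137 by edgeR) and 1.59-fold at 200 mM NaCl (log2 0.67, SE 0.12, adjusted p = 0.00638). The second was lost without either N2 library at 200 mM NaCl (adjusted p up to 0.0878). On leaving out *osm-9(ok1677)* libraries 2 and 3, 2 of the 7 desaturases rose at 51 mM (*fat-2* and *fat-7*) and 3 at 200 mM NaCl (*fat-3* as well).

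The other desaturases did not pass. FAT-3, FAT-4 and FAT-1 act after FAT-2 on the way to the long polyunsaturated fatty acids, and *fat-1* lies 5061 bp from *fat-2* on the same strand. At 51 mM NaCl *fat-1* had 654, 563, 565 and 693 CPM in *osm-9(ok1677)* worms and 549 and 513 CPM in N2, a log2 difference of 0.22 (SE 0.13, adjusted p = 0.268). For *fat-3* and *fat-4*, which lie 796 bp apart, log2 differences were 0.39 and 0.18 at 51 mM and 0.57 and 0.30 at 200 mM NaCl, with adjusted p between 0.0944 and 0.483. FAT-7 and FAT-6 turn stearic into oleic acid, the substrate of FAT-2, and FAT-5 acts on palmitic acid. For *fat-7* the values were 327, 188, 173 and 446 CPM in *osm-9(ok1677)* worms at 51 mM NaCl, against 166 and 92.2 CPM in N2, and 127, 73.2, 76.4 and 122 CPM at 200 mM NaCl, against 51.1 and 38 CPM in N2. The strains did not overlap at either concentration, yet with this spread the log2 differences of 1.14 (SE 0.41) and 1.16 (SE 0.42) did not pass (adjusted p = 0.0947 and 0.119 by edgeR). *fat-6*, whose sequence is close enough to that of *fat-7* for reads to be shared, had 389 to 581 CPM in *osm-9(ok1677)* worms and 591 and 367 CPM in N2 at 51 mM NaCl, a log2 difference of 0.03 (SE 0.26). *fat-5* had log2 differences of -0.39 (SE 0.22) at 51 mM and -0.72 (SE 0.22) at 200 mM NaCl (adjusted p = 0.263 and 0.0714).

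Elongase fold changes lay below 0 in 9 of 9 genes at 51 mM and in 8 of 9 at 200 mM NaCl, with medians of -0.61 and -0.54, but 1 gene passed. This was *elo-2* (chromosome IV, 17466062 to 17467408), which lengthens palmitic acid. It had 189, 130.2, 129 and 128 CPM in *osm-9(ok1677)* worms and 216 and 271 CPM in N2 at 51 mM NaCl, a log2 change of -0.76 (SE 0.22, adjusted p = 0.0473 by edgeR). The groups did not overlap, but the call was lost in 11 of 20 alternative settings, among them the one without libraries 2 and 3 of *osm-9(ok1677)* (adjusted p = 0.128), where 3 other elongases fell at 51 mM and 3 of the 9 at 200 mM NaCl. The *elo-2* difference at 200 mM NaCl was -0.33 (SE 0.23, adjusted p = 0.419).

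ELO-5 and ELO-6 make the monomethyl branched-chain fatty acids that worms need for growth. *elo-5* had 388, 169.8, 158 and 154 CPM in *osm-9(ok1677)* worms at 51 mM NaCl, against 469.8 and 479 CPM in N2. Library 1 stood far above the other 3 and close to N2, and with it the log2 difference of -1.13 had an SE of 0.39 (adjusted p = 0.0815). *elo-6*, 9511 bp away, showed the same library 1 (561, 255, 252 and 190.2 CPM, against 445 and 591 CPM in N2; log2 -0.72, SE 0.38, adjusted p = 0.236). These are the only members within 2 Mb of *osm-9*. *elo-1*, needed for the long polyunsaturated fatty acids, shares its locus with F56H11.11 and had log2 differences of -0.26 and -0.08 (SE 0.11 each, adjusted p = 0.143 and 0.722).

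The acyl-CoA synthetases split by gene. Of the 21 tested, 3 were higher at 51 mM NaCl (*acs-3*, *acs-7* and *acs-17*), and at 200 mM NaCl 1 was higher (*acs-3*) and 1 lower (*acs-1*). Leaving out *osm-9(ok1677)* libraries 2 and 3 gave 3 higher and 4 lower at 51 mM, and 1 higher and 4 lower at 200 mM NaCl. *acs-3* (chromosome V, 1969528 to 1974514), a synthetase known for its effect on fat storage, had 16.6, 11.7, 8.43 and 13.5 CPM in *osm-9(ok1677)* worms and 4.93 and 1.90 CPM in N2 at 51 mM NaCl. Under hypertonic stress it had 11.5, 8.35, 8.90 and 10.9 CPM in *osm-9(ok1677)* worms and 3.73 and 3.29 CPM in N2. No library of one strain reached the range of the other at either concentration, and the increases were 3.67-fold (log2 1.88, SE 0.38, adjusted p = 0.00965) and 2.81-fold (log2 1.49, SE 0.37, adjusted p = 0.0366 by edgeR). The first was lost without N2 library 2 at 51 mM NaCl (adjusted p = 0.101), and its log2 change lay between 1.29 and 2.72 as single libraries were left out. The second was lost without either N2 library at 200 mM NaCl and without *osm-9(ok1677)* library 1, 3 or 4, with adjusted p up to 0.228.

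*acs-7*, a peroxisomal synthetase that activates the side chains of ascaroside pheromones, had 11.4, 9.92, 12.7 and 11 CPM in *osm-9(ok1677)* worms, against 4.38 and 5.96 CPM in N2 at 51 mM NaCl. This was a 2.18-fold increase (log2 1.12, SE 0.28, adjusted p = 0.0247), lost without either N2 library or without *osm-9(ok1677)* library 3 (adjusted p up to 0.174). *acs-17* had 90.7, 78.5, 97.8 and 103 CPM in *osm-9(ok1677)* worms and 60.3 and 58.7 CPM in N2 (log2 0.64, SE 0.15, adjusted p = 0.0201), a call lost without either N2 library (adjusted p up to 0.166). At 200 mM NaCl both genes overlapped between the strains and neither passed.

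ACS-1 activates the branched-chain fatty acids that ELO-5 makes. The *acs-1* locus, which also holds a piRNA gene, had 249.6, 169, 129 and 173 CPM in *osm-9(ok1677)* worms at 200 mM NaCl, against 354 and 297 CPM in N2 (log2 -0.85, SE 0.22, adjusted p = 0.0431 by edgeR). At 51 mM NaCl the values were 268, 194, 181 and 218 CPM, against 323 and 329.8 CPM in N2, and the log2 difference of -0.60 did not pass (adjusted p = 0.099). Libraries 2 and 3 were the lowest at both concentrations, and without them the difference at 200 mM NaCl was -0.67 with adjusted p = 0.0637. *acs-2*, a mitochondrial synthetase known for its induction by fasting, did not pass between strains, with log2 differences of -0.17 (SE 0.39) and -0.55 (SE 0.39).

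**Figure D2:**
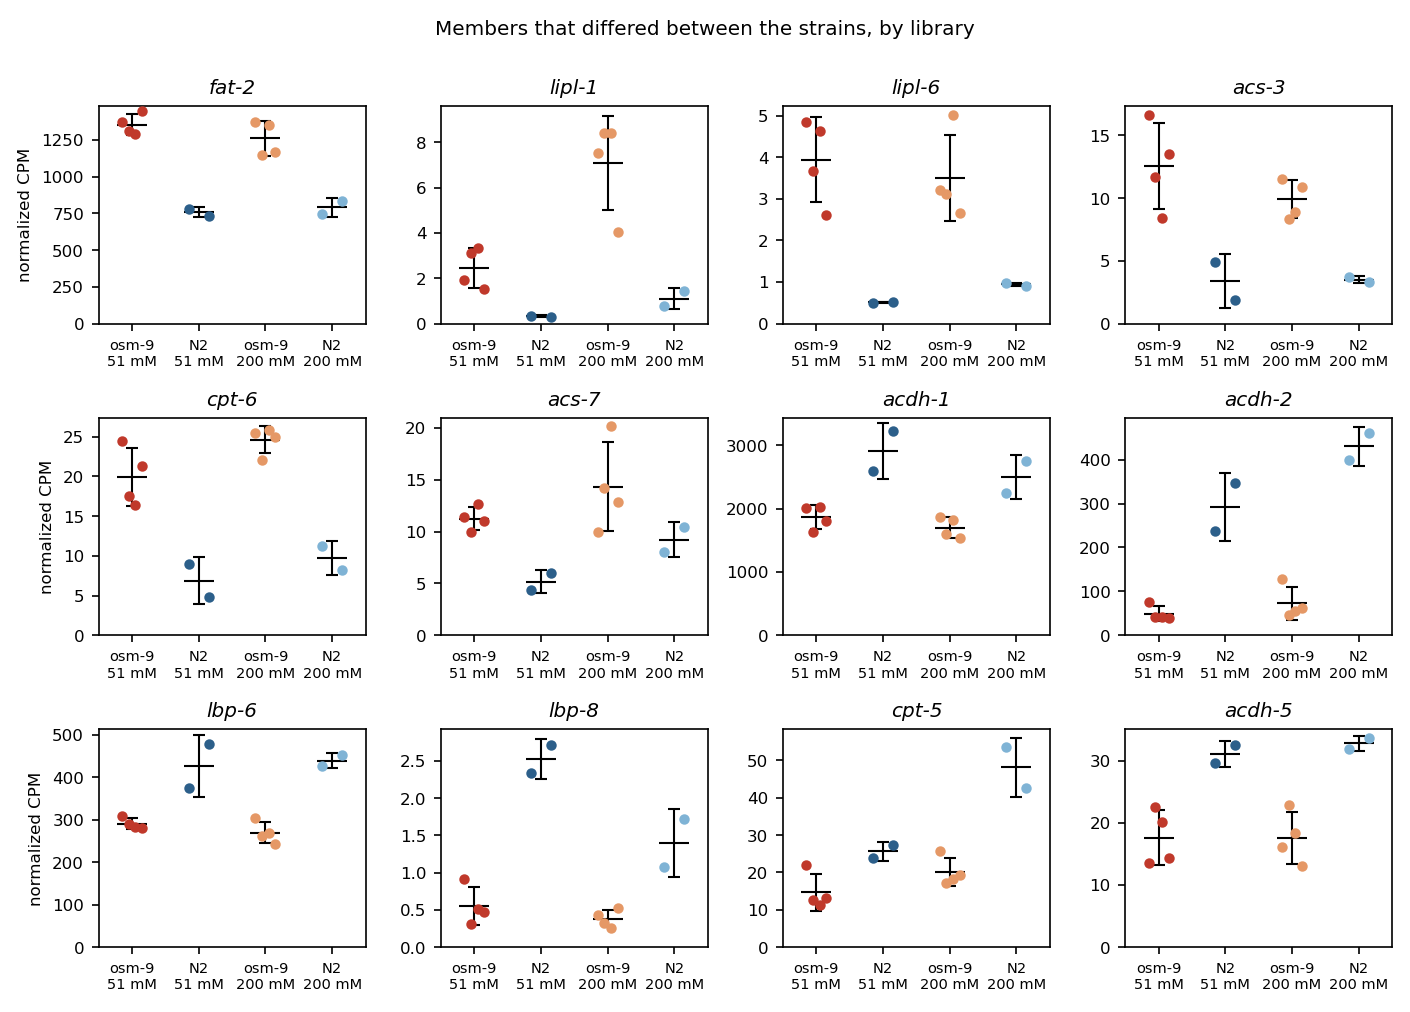
Normalised CPM of 12 genes in every library, with the mean and SD of each group (n = 4 for *osm-9*, n = 2 for N2), in the order *osm-9* and N2 at 51 mM NaCl, then *osm-9* and N2 at 200 mM NaCl. All axes start at 0. At 51 mM NaCl no *osm-9(ok1677)* library of these genes overlapped N2, as in *fat-2* (1288 to 1447 against 735 and 781 CPM). All were taken from members that passed between strains, and the naming rule favours members without overlap, so this separation follows in part from the choice. At 200 mM NaCl *acs-7* was the one that overlapped, among *fat-2*, *lipl-1*, *lipl-6*, *acs-3*, *cpt-6*, *acs-7*, *acdh-1*, *acdh-2*, *lbp-6*, *lbp-8*, *cpt-5* and *acdh-5*.

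The genes of transport into mitochondria and of beta-oxidation changed unevenly. Of the 6 carnitine palmitoyl transferase genes, *cpt-6* was higher at both concentrations, and *cpt-2*, *cpt-3* and *cpt-5* were lower at 200 mM NaCl. With libraries 2 and 3 of *osm-9(ok1677)* left out, 1 was higher at both and 4 were lower at 200 mM NaCl. *cpt-6* (chromosome V, 6490086 to 6493921) had 24.4, 17.5, 16.4 and 21.3 CPM in *osm-9(ok1677)* worms and 9.01 and 4.78 CPM in N2 at 51 mM NaCl (2.89-fold, log2 1.53, SE 0.27, adjusted p = 0.0049 by edgeR). On the hypertonic plates it had 25.5, 22.1, 25.8 and 25 CPM in *osm-9(ok1677)* worms and 11.3 and 8.26 CPM in N2 (2.51-fold, log2 1.33, SE 0.26, adjusted p = 0.0128). The first call was lost without N2 library 2 at 51 mM NaCl (adjusted p = 0.0708), with log2 changes between 1.08 and 2.05 as single libraries were left out, and the second without either N2 library at 200 mM NaCl (adjusted p up to 0.156). *cpt-5* had 25.7, 17.2, 18.3 and 19.3 CPM in *osm-9(ok1677)* worms at 200 mM NaCl, against 53.7 and 42.5 CPM in N2 (log2 -1.26, SE 0.25, adjusted p = 0.0136), a call lost without N2 library 1 (adjusted p = 0.138). It lies 3663 bp from *lbp-7*. The decreases of *cpt-2*, which encodes the transferase of the inner mitochondrial membrane, and *ech-4*, of the enoyl-CoA isomerase type, were smaller: -0.54 (SE 0.11, adjusted p = 0.0128) and -0.51 (SE 0.10, adjusted p = 0.0126) at 200 mM NaCl. Both were lost without N2 library 2 at that concentration, and *cpt-2* also without library 1 (adjusted p up to 0.105 for *cpt-2* and 0.108 for *ech-4*). *cpt-3* is described with the NaCl responses.

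No acyl-CoA dehydrogenase rose. At 51 mM NaCl 4 of the 13 were lower (*acdh-1*, *acdh-2*, *acdh-5* and *acdh-13*), and at 200 mM NaCl the first 3 of these. In the fit that left out *osm-9(ok1677)* libraries 2 and 3, 6 and 4 were lower. *acdh-1* (chromosome I, 6497436 to 6499560) encodes the dehydrogenase that opens the shunt by which worms break down propionate when vitamin B12 is scarce. It had 2005, 1631, 2028 and 1799.6 CPM in *osm-9(ok1677)* worms and 2592 and 3218 CPM in N2 at 51 mM NaCl. In the stressed worms it had 1859.7, 1592, 1821 and 1533 CPM in *osm-9(ok1677)* worms and 2249 and 2747 CPM in N2. With no overlap at either concentration, the log2 changes were -0.64 (SE 0.14, adjusted p = 0.0156) and -0.55 (SE 0.14, adjusted p = 0.0411 by edgeR). The first was lost without N2 library 2 at 51 mM NaCl (adjusted p = 0.125), and the second in 7 of 12 fits that left out 1 library, among them those without either N2 library at 200 mM NaCl (adjusted p up to 0.223), and without *osm-9(ok1677)* libraries 2 and 3 (adjusted p = 0.0858).

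The other genes of that shunt were not all lower. *ech-6*, the hydratase of the next step, whose locus also holds T05G5.5, had log2 differences of -0.43 (SE 0.15, adjusted p = 0.0878) and -0.50 (SE 0.15, adjusted p = 0.0759). The locus of the hydrolase gene *hach-1*, which is shared with *rpc-2*, fell at both concentrations, with 629.6, 629, 704 and 620.5 CPM in *osm-9(ok1677)* worms and 943 and 1239.7 CPM in N2 at 51 mM NaCl (log2 -0.76, SE 0.14, adjusted p = 0.00673) and a log2 change of -1.06 at 200 mM NaCl (SE 0.14, adjusted p = 0.00135). The *hach-1* call at 51 mM NaCl was lost without N2 library 2 (adjusted p = 0.0842). *hphd-1*, the dehydrogenase of the step after it, fell by 0.82 on the log2 scale at 200 mM NaCl (SE 0.20, adjusted p = 0.0337; lost without N2 library 2 or *osm-9(ok1677)* library 2 or 4 at that concentration, adjusted p up to 0.263), and at 51 mM NaCl its difference of -0.63 did not pass (adjusted p = 0.0598). *alh-8*, the last enzyme of the shunt, had 1334, 1640.1, 1794 and 1801 CPM in *osm-9(ok1677)* worms and 1309 and 1501 CPM in N2 at 51 mM NaCl, with log2 differences of 0.23 and 0.05 (adjusted p = 0.414 and 0.896).

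The largest decrease of all members was that of the *acdh-2* locus (chromosome II, 5544512 to 5547492), which joins this dehydrogenase gene with the insulin gene *ins-13*, so the count cannot be split between them. It had 75.8, 42.0, 40.7 and 38.7 CPM in *osm-9(ok1677)* worms and 237 and 347 CPM in N2 at 51 mM NaCl. With 200 mM NaCl it had 129, 47.0, 54.3 and 62.5 CPM in *osm-9(ok1677)* worms and 399 and 461 CPM in N2. Library 1 of *osm-9(ok1677)* was the highest of its strain at both concentrations and still far below N2. The log2 changes were -2.57 (SE 0.38, adjusted p = 0.00194) and -2.55 (SE 0.37, adjusted p = 0.00251 by edgeR), that is 0.169 and 0.170 times the N2 level. They kept their side of the threshold in every alternative setting that was run.

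*acdh-5* had 13.5, 22.6, 20.2 and 14.3 CPM in *osm-9(ok1677)* worms and 29.7 and 32.6 CPM in N2 at 51 mM NaCl (log2 -0.82, SE 0.24, adjusted p = 0.0476), and the change at 200 mM NaCl was of the same size (log2 -0.90, SE 0.24, adjusted p = 0.0487). Both calls sit at the threshold and were lost in 10 and 11 of 20 alternative settings. *acdh-13* fell by 0.48 on the log2 scale at 51 mM NaCl (SE 0.11, adjusted p = 0.0187), a call lost without either N2 library of that concentration (adjusted p up to 0.0999). *ech-8*, an enoyl-CoA hydratase family gene, had 11, 10.9, 16.6 and 10.2 CPM in *osm-9(ok1677)* worms and 21.5 and 26.2 CPM in N2 at 200 mM NaCl (log2 -0.97, SE 0.25, adjusted p = 0.044), a call lost in 10 of 20 settings.

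Fold changes of the lysosomal lipases lay above 0 in all 7 tested genes at both concentrations, with medians of 0.56 and 0.87, and the same pair of genes passed each time. Both genes, and no other lipase, also passed at both concentrations without *osm-9(ok1677)* libraries 2 and 3. The medians of the 7 lipases were smaller in that fit, at 0.28 and 0.53. *lipl-1* and *lipl-6* had the largest increases of all members. LIPL-1 is known for its induction by fasting. Its gene (chromosome V, 12919986 to 12921692) had 1.92, 3.10, 3.33 and 1.52 CPM in *osm-9(ok1677)* worms and 0.348 and 0.308 CPM in N2 at 51 mM NaCl, the N2 values resting on 7 and 6 counts. On 200 mM NaCl plates it had 7.53, 8.41, 8.40 and 4.05 CPM in *osm-9(ok1677)* worms and 0.767 and 1.42 CPM in N2. The groups were apart at both concentrations, with log2 changes of 2.88 (SE 0.52, adjusted p = 0.00545) and 2.69 (SE 0.45, adjusted p = 0.00543 by edgeR). Without N2 library 2 at 51 mM and without N2 library 1 at 200 mM NaCl they no longer passed (adjusted p = 0.0832 and 0.084).

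*lipl-6* (chromosome V, 6931475 to 6934312) had 4.84, 3.66, 4.64 and 2.62 CPM in *osm-9(ok1677)* worms and 0.498 and 0.513 CPM in N2 at 51 mM NaCl, where N2 had 10 counts in each library. Under hypertonic stress it had 3.21, 3.11, 5.01 and 2.65 CPM in *osm-9(ok1677)* worms and 0.971 and 0.912 CPM in N2. The increases were 7.72-fold (log2 2.95, SE 0.39, adjusted p = 0.00097) and 3.69-fold (log2 1.89, SE 0.35, adjusted p = 0.0102 by edgeR). The first passed in every alternative, and the second was lost without either N2 library at 200 mM NaCl (adjusted p up to 0.114). *lipl-5*, the most abundant lipase, had log2 differences of 0.20 and 0.42 that did not pass, and *lipl-4*, a lipase known for extending lifespan when overexpressed, had 1.28, 1.80, 2.81 and 1.83 CPM in *osm-9(ok1677)* worms and 1.64 and 1.44 CPM in N2 at 51 mM NaCl (log2 0.33, SE 0.49).

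None of the 9 lipid-binding protein genes rose, and 3 fell at 51 mM NaCl (*lbp-6*, *lbp-7* and *lbp-8*), as did 3 of the 9 without *osm-9(ok1677)* libraries 2 and 3. LBP-8 is known as a carrier that moves a lipid signal from lysosomes to the nucleus. *lbp-8* (chromosome V, 13890773 to 13891364) had 0.913, 0.310, 0.515 and 0.471 CPM in *osm-9(ok1677)* worms and 2.34 and 2.72 CPM in N2 at 51 mM NaCl. On the hypertonic plates it had 0.432, 0.321, 0.253 and 0.519 CPM in *osm-9(ok1677)* worms and 1.07 and 1.72 CPM in N2. These are low levels, 5 to 20 counts a library in *osm-9(ok1677)* worms, and the strains did not overlap. The log2 changes were -2.16 (SE 0.38, adjusted p = 0.00487) and -1.86 (SE 0.41, adjusted p = 0.0216 by edgeR). The first call was lost without N2 library 2 at 51 mM NaCl (adjusted p = 0.051) and the second without either N2 library at 200 mM NaCl (adjusted p up to 0.178).

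*lbp-7*, 10559 bp from *lbp-8* on the same strand, had 26.7, 30.5, 26.1 and 20.5 CPM in *osm-9(ok1677)* worms and 35.8 and 62.2 CPM in N2 at 51 mM NaCl (log2 -0.92, SE 0.21, adjusted p = 0.02). Without N2 library 2 it was -0.52 (adjusted p = 0.237). Its difference at 200 mM NaCl, -0.48, did not pass. The far more abundant *lbp-6* (chromosome I, 6728296 to 6729376) had 309, 290.3, 283 and 279 CPM in *osm-9(ok1677)* worms and 374 and 478 CPM in N2 at 51 mM NaCl, and 303, 261, 269 and 243 CPM, against 426 and 451 CPM in N2, at 200 mM NaCl. It fell by 0.55 (SE 0.12, adjusted p = 0.0144) and 0.71 (SE 0.12, adjusted p = 0.00611) on the log2 scale, calls lost without N2 library 2 of each concentration (adjusted p = 0.139 and 0.0554), while *lbp-5*, 1890 bp away, had differences of 0.22 and 0.34 that did not pass. The 3 genes *lbp-1*, *lbp-2* and *lbp-3*, which are adjacent on chromosome X, did not pass in either comparison.

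The second question is what 6 h on 200 mM NaCl did to these genes in each strain. In *osm-9(ok1677)* worms 1 gene rose and 2 fell, where 0.221% and 0.13% of all loci did so. In N2 1 rose and 2 fell, against 0.0844% and 0.11% of all loci. They were the same 3 genes, *cpt-3*, *hacd-1* and *ech-7*. The median log2 fold change of the 82 genes was 0.01 in *osm-9(ok1677)* worms and 0.09 in N2, and those of all loci were -0.01 and 0.02. Without *osm-9(ok1677)* libraries 2 and 3 no member passed in that strain, which then had 2 libraries a group (adjusted p = 0.156 for *cpt-3*, 0.179 for *ech-7* and 0.723 for *hacd-1*), and the shares of all loci were 0.0464% and 0.0133%. With all libraries 18 of the 82 had an unadjusted p of 0.05 or less in *osm-9(ok1677)* worms and 20 in N2, against 5.57% and 4.96% of all loci. DESeq2 called 7 in each strain, a count given without a share of all loci.

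*cpt-3* (chromosome III, 2082819 to 2088314), of the carnitine palmitoyl transferase family, had the largest response of all members. In *osm-9(ok1677)* worms it had 2.01, 2.89, 4.05 and 3.90 CPM at 200 mM NaCl, against 0.411, 0.372, 0.328 and 0.628 CPM at 51 mM NaCl (7.30-fold, log2 2.87, SE 0.30, adjusted p = 0.00206 by edgeR). In N2 it had 14.7 and 14.7 CPM at 200 mM NaCl, against 1.14 and 0.770 CPM at 51 mM NaCl (15.3-fold, log2 3.93, SE 0.40, adjusted p = 0.00175). Concentrations were far apart in both strains. At 200 mM NaCl *cpt-3* was lower in *osm-9(ok1677)* worms than in N2 (log2 -2.20, SE 0.29, adjusted p = 0.00126), and at 51 mM NaCl, where *osm-9(ok1677)* libraries held 6 to 12 counts and N2 libraries 23 and 15, the difference of -1.13 (SE 0.37) did not pass (adjusted p = 0.0691).

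*hacd-1* (chromosome V, 1460369 to 1461613), which encodes a hydroxyacyl-CoA dehydrogenase, fell in both strains. In *osm-9(ok1677)* worms it had 82, 58.4, 58.1 and 58.8 CPM at 200 mM NaCl, against 114, 102, 118 and 111 CPM at 51 mM NaCl. In N2 it had 23.9 and 30.5 CPM at 200 mM NaCl, against 107 and 124 CPM at 51 mM NaCl. The log2 changes were -0.79 (SE 0.13, adjusted p = 0.028) in *osm-9(ok1677)* worms and -2.09 (SE 0.19, adjusted p = 0.000952 by edgeR) in N2, with no overlap between concentrations in either. The strains were alike at 51 mM NaCl within their spread (log2 -0.05, SE 0.16), and at 200 mM NaCl *osm-9(ok1677)* worms had 2.37 times the N2 level (log2 1.24, SE 0.17, adjusted p = 0.00181). The change in *osm-9(ok1677)* worms was lost on leaving out single libraries of that strain in 7 of 8 cases, and the one in N2 only when the fit was limited to the N2 libraries (adjusted p = 0.0609).

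*ech-7* (chromosome I, 14367616 to 14369773), an enoyl-CoA hydratase family gene, fell by similar amounts. In *osm-9(ok1677)* worms it had 50, 34.7, 31.1 and 40.9 CPM at 200 mM NaCl, against 79.5, 81.4, 76.5 and 100.2 CPM at 51 mM NaCl (log2 -1.11, SE 0.15, adjusted p = 0.00782 by edgeR). In N2 it had 43.7 and 44.6 CPM at 200 mM NaCl, against 107 and 100.2 CPM at 51 mM NaCl (log2 -1.23, SE 0.21, adjusted p = 0.0428). The N2 change was lost without any one of the N2 libraries or any one of 5 *osm-9(ok1677)* libraries, with adjusted p up to 0.339 over the alternatives.

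**Figure D3:**
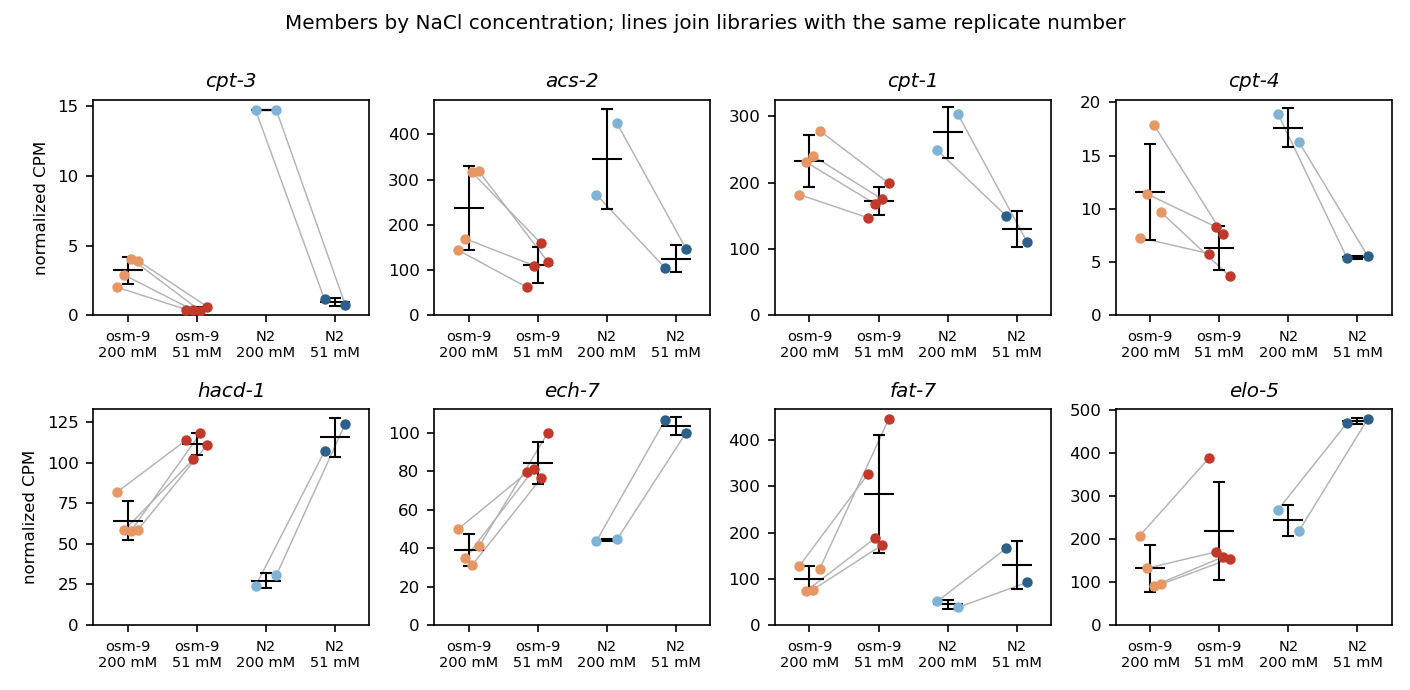
Normalised CPM of 8 genes by NaCl concentration, for *osm-9* at 200 and 51 mM and then N2 at 200 and 51 mM, with the mean and SD of each group (n = 4 and n = 2). Grey lines join libraries with the same replicate number. Lines of *cpt-3*, *acs-2*, *cpt-1* and *cpt-4* are all higher at 200 mM and lines of *hacd-1*, *ech-7*, *fat-7* and *elo-5* all lower. Levels of *fat-7* and *acs-2* at one concentration differ widely between libraries.

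In *osm-9(ok1677)* worms, libraries with the same replicate number at the 2 concentrations deviated together, and a fit with the replicate number as a block reduced this spread. In that fit 8 members rose and 5 fell with NaCl, against 1.03% and 1.45% of all loci. The added genes included *acs-2*, which had 144, 169.6, 316 and 318 CPM at 200 mM NaCl and 61.7, 109.9, 159 and 118 CPM at 51 mM NaCl in libraries 1 to 4 of *osm-9(ok1677)*. Its ratios within replicates were 2.33, 1.54, 1.99 and 2.69 (log2 1.07, SE 0.12, adjusted p = 0.000386 with the replicate block, 0.371 without). In N2, whose libraries share only 2 numbers, the *acs-2* ratios were 2.56 and 2.87, and in the same fit 9 members rose and 4 fell in N2, against 0.701% and 0.74% of all loci, *acs-2* among them (log2 1.44, adjusted p = 0.000832).

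*fat-7* was the clearest fall in the blocked fit for *osm-9(ok1677)* worms, while in N2 that of *hacd-1* was larger (log2 -2.09). Its level at 200 mM NaCl was 0.388, 0.390, 0.441 and 0.272 times that at 51 mM NaCl in the 4 replicates of *osm-9(ok1677)* and 0.309 and 0.412 times in N2. With the block the log2 change in *osm-9(ok1677)* worms was -1.45 (adjusted p = 3.66e-05), and without it -1.51 (SE 0.33, adjusted p = 0.105). In N2 the change was -1.49 with the block (adjusted p = 0.000832) and -1.53 without it (SE 0.47, adjusted p = 0.459). The close relative *fat-6* also fell with the block (log2 -0.45, adjusted p = 0.0417), with ratios of 0.954, 0.737, 0.636 and 0.652, as did *elo-5* (log2 -0.71, adjusted p = 0.0289), with ratios of 0.537, 0.779, 0.575 and 0.613.

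A pair of lipase genes rose in the blocked fit for *osm-9(ok1677)* worms. *lipl-1* had ratios of 3.93, 2.71, 2.52 and 2.67 (log2 1.54, adjusted p = 0.000615 with the block, 0.0937 without), and *lipl-2* ratios of 1.90, 2.61, 2.19 and 1.62 (log2 1.03, adjusted p = 0.00441 with the block). The remaining genes that rose with the block were *acs-14* (log2 0.78, adjusted p = 0.00768), with ratios of 1.83, 1.69, 1.69 and 1.67, and the lipid-binding protein genes *lbp-7*, *lbp-1* and *lbp-5*, with log2 changes of 0.57, 0.41 and 0.35.

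All 6 *cpt* genes had fold changes above 0 with NaCl in both strains, with medians of 0.44 in *osm-9(ok1677)* worms and 1.0 in N2, but apart from *cpt-3* none passed without the block. *cpt-1*, the gene for the outer membrane transferase that admits fatty acids to mitochondria, had 182, 231, 240.4 and 278 CPM at 200 mM NaCl and 147, 168, 175 and 199 CPM at 51 mM NaCl in *osm-9(ok1677)* worms (log2 0.43, SE 0.15, adjusted p = 0.515). In N2 it had 249 and 303 CPM at 200 mM NaCl and 149.8 and 111 CPM at 51 mM NaCl (log2 1.08, SE 0.21, adjusted p = 0.102). The medium-chain dehydrogenase gene *acdh-10* and its neighbour *acdh-7*, 114 bp apart on the same strand, had log2 differences of 1.03 and 0.97 in N2 (adjusted p = 0.146 and 0.392) and of 0.24 and 0.25 in *osm-9(ok1677)* worms (adjusted p = 1). With the block, *cpt-1* (log2 1.07, adjusted p = 0.00651), *cpt-4* (1.69, adjusted p = 0.0114), *acdh-10* (1.02, adjusted p = 0.00308) and *acdh-7* (0.95, adjusted p = 0.0316) passed in N2, and none of these 4 passed in *osm-9(ok1677)* worms (adjusted p between 0.0508 and 0.494).

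**Figure D4:**
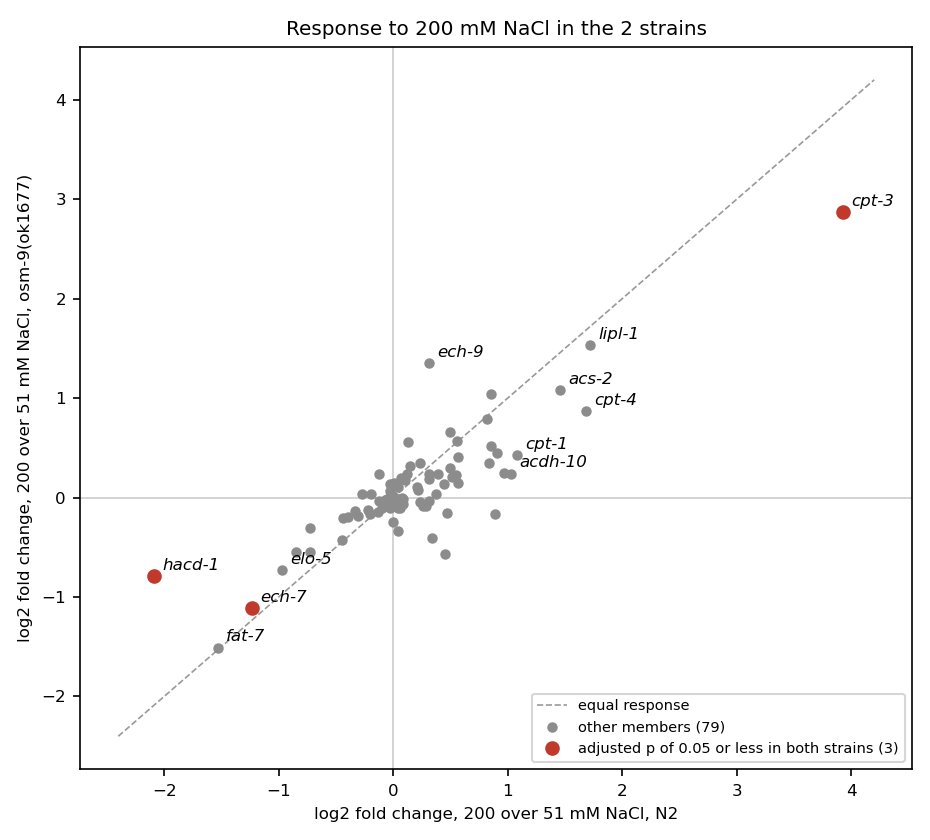
Log2 fold change of 200 over 51 mM NaCl in *osm-9(ok1677)* worms (vertical axis) and in N2 (horizontal axis) for the 82 genes tested. Red points passed the test in both strains, and the dashed line marks equal responses. *cpt-3* lies at 2.87 and 3.93, *ech-7* close to the line at -1.11 and -1.23, and *hacd-1* off it at -0.79 and -2.09.

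Whether the response differed between the strains was tested as the strain by NaCl interaction. None of the 82 members passed by edgeR, where 0.00649% of all loci did (1 locus). In simulated counts this test called only 3 of 100 differences of log2 1 and 43 of 100 of log2 2, so members without a call may still differ. At an unadjusted p of 0.05 or less there were 5 members, against 1.8% of all loci. Without *osm-9(ok1677)* libraries 2 and 3 none passed and 4 had an unadjusted p of 0.05 or less, where 269 of 15070 loci did. Of the 5 members with all libraries, the one with the smallest p was *hacd-1*, whose log2 response was 1.3 higher (that is, a smaller fall) in *osm-9(ok1677)* worms than in N2 (SE 0.23, unadjusted p = 0.00013, adjusted p = 0.666). DESeq2 gave the same size, 1.31, with adjusted p = 0.00196, and called no other member. The other 4 were *acdh-10* (-0.79, SE 0.27), *cpt-1* (-0.65, SE 0.26), *ech-4* (-0.42, SE 0.14) and *acs-11* (0.36, SE 0.15), each with adjusted p = 1. *cpt-3*, with responses of 2.87 and 3.93, was just outside this limit. Its difference was -1.06 (SE 0.49, unadjusted p = 0.051 by edgeR).

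Libraries of *osm-9(ok1677)* differed among themselves in a part of the genes in a way that followed the replicate number at both concentrations. *acs-20*, a synthetase of the fatty acid transporter type needed for the surface barrier of the cuticle, had 32.5, 72.4, 80.2 and 32.6 CPM in *osm-9(ok1677)* libraries 1 to 4 at 51 mM NaCl, against 19.7 and 23.3 CPM in N2, and 28.5, 45.0, 58.4 and 31.3 CPM at 200 mM NaCl, against 20.9 and 33.4 CPM in N2. *acdh-6* had 2.97, 13.8, 18.4 and 3.77 CPM in *osm-9(ok1677)* libraries at 51 mM NaCl, against 1.79 and 2.93 CPM in N2. Libraries 2 and 3 were the high ones, as they were for the molting genes and the opposite of the yolk genes. In *acdh-8*, with 49.4, 84.3, 65.9 and 46.5 CPM in *osm-9(ok1677)* worms and 98.7 and 116 CPM in N2 at 51 mM NaCl, libraries 1 and 4 lay farther from N2. None of these 3 passed between strains (adjusted p = 0.0666, 0.138 and 0.0516 at 51 mM NaCl), though *acdh-8* did without libraries 2 and 3. Of the 13 molting genes, 7 rose at 51 mM NaCl with a median log2 fold change of 2.44, and of the 7 germline markers 2 fell at 51 mM and 1 at 200 mM NaCl. Of 7 epidermal markers, 2 rose at 51 mM NaCl, with a median of 1.46 and sums of 208 to 318 CPM in *osm-9(ok1677)* worms and 159 to 159.8 CPM in N2. Of 7 neuronal markers 1, *ida-1*, rose at 51 mM NaCl (log2 0.56), and the list summed to 408 to 472 CPM in *osm-9(ok1677)* worms and 348 to 361 CPM in N2. Without *osm-9(ok1677)* libraries 2 and 3, 7 molting genes, 1 epidermal and no neuronal marker rose at 51 mM NaCl. The 5 sperm markers summed to 119.8, 222, 146 and 135 CPM in *osm-9(ok1677)* libraries 1 to 4 and 204 and 189.9 CPM in N2 at 51 mM NaCl. None of them passed at either concentration, with a median log2 fold change of -0.51 at both. With *osm-9(ok1677)* libraries 2 and 3 left out, 4 of the 5 sperm markers fell at both concentrations, with medians of -0.92 and -0.8. Stage and strain cannot be told apart where all libraries of a strain shift, and the part of stage in the members' results was not tested.

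Fatty acid genes outside the 9 name families were read from a list of 60 gene names at 59 loci, since *acox-1.3* and *acox-1.4* share one. Of these, 6 rose and 3 fell in *osm-9(ok1677)* worms at 51 mM NaCl, with a median log2 fold change of 0.08, and 2 rose and 3 fell at 200 mM NaCl, with a median of -0.01, beside the 7.64% and 4.63% of all loci at 51 mM and the 4.13% and 2.3% at 200 mM NaCl. Some of these calls were lost in fits that left out 1 library, as given for single genes. Without *osm-9(ok1677)* libraries 2 and 3, 2 rose and 2 fell at 51 mM NaCl, against 6.28% and 10.8% of all loci. At 200 mM NaCl 2 rose and 1 fell in that fit, against 4.78% and 9.3% of all loci. None passed with NaCl in either strain or in the interaction by edgeR, where 8, 11 and 0 had an unadjusted p of 0.05 or less in *osm-9(ok1677)* worms, in N2 and in the interaction, and DESeq2 called 2, 1 and 0. With the replicate block, 3 of the 59 passed with NaCl in *osm-9(ok1677)* worms (1 higher and 2 lower).

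The largest change among those that passed was that of *dgat-2*, which makes triacylglycerol for lipid droplets. It had 10.4, 11.2, 9.70 and 6.33 CPM in *osm-9(ok1677)* worms and 23.2 and 48.7 CPM in N2 at 51 mM NaCl (log2 -1.93, SE 0.31, adjusted p = 0.00294 by edgeR), and at 200 mM NaCl its difference of -1.1 did not pass (adjusted p = 0.0577). Without N2 library 2 the change at 51 mM NaCl was -1.36 (adjusted p = 0.0605). The lipases *fil-1* and *fil-2*, known for their induction by fasting, rose at 51 mM NaCl with log2 changes of 1.82 (SE 0.52) and 1.78 (SE 0.49) at levels near or below 1 CPM, calls lost in 10 and 6 of 12 fits that left out 1 library (adjusted p up to 0.248 and 0.264). The fatty acid and retinol binding protein gene *far-7* rose at both concentrations, with 18.4, 15.2, 20.2 and 21.5 CPM in *osm-9(ok1677)* worms and 8.36 and 4.72 CPM in N2 at 51 mM NaCl (log2 1.52, SE 0.29, adjusted p = 0.00723), and log2 1.43 at 200 mM NaCl (adjusted p = 0.0134), both lost without N2 library 2 of the concentration (adjusted p = 0.105 and 0.158).

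Of 10 regulators, 1 passed at 51 mM and another at 200 mM NaCl, and without *osm-9(ok1677)* libraries 2 and 3 none and 1 did. *hlh-30*, the worm TFEB factor that acts on lysosomal lipase genes in fasting, had 93.7, 140.1, 164 and 126 CPM in *osm-9(ok1677)* worms and 53.2 and 65.6 CPM in N2 at 51 mM NaCl (log2 1.14, SE 0.25, adjusted p = 0.016 by edgeR), and 0.93 (adjusted p = 0.0509) at 200 mM NaCl. The call was lost without either N2 library at 51 mM NaCl (adjusted p up to 0.124) and without *osm-9(ok1677)* libraries 2 and 3 (adjusted p = 0.0838). *mxl-3*, which represses lipase genes in fed worms, had log2 differences of -0.30 and -0.28 (SE 0.22 each, adjusted p = 0.413 and 0.495). *nhr-80*, a nuclear receptor that acts on the desaturase genes, rose at 200 mM NaCl (log2 0.79, SE 0.19, adjusted p = 0.0352), a call lost in 7 of 12 fits that left out 1 library (adjusted p up to 0.241). *nhr-49*, which acts on *acs-2* and *fat-7*, shares its locus with another gene. That locus had log2 differences of 0.18 and 0.02 between strains and of 0.00 and 0.16 with NaCl in *osm-9(ok1677)* worms and N2. None of these passed.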

How the data were processed

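Paired-end TruSeq mRNA libraries of late L4 worms were sequenced in 12 samples, whose strain, concentration of NaCl and replicate number are those of the labels. The deposited values are read counts per locus. To make them, the authors aligned reads with TopHat 1.4.1 to the WS235 assembly, assigned them to genes of Ensembl with Cufflinks 2.0.1 and left the counts unnormalised. The authors tested them with edgeR 3.2.4. Use of strand in the counting is not given in the sources used here, so overlapping genes on opposite strands, and close relatives such as *fat-6* and *fat-7*, are uncertain. A locus can join several genes, as for 6 of the 83 members. The study describes 2 to 4 independent experiments a condition.

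Loci were filtered with filterByExpr (minimum count 10, minimum total 15), which kept 15403 of 21204 loci with a count. After TMM scaling the model was fitted in edgeR 4.0.16 under R 4.3.3 (quasi-likelihood, 1 mean for each of the 4 groups, all 12 libraries, two-sided tests, Benjamini-Hochberg adjustment over all loci tested, threshold 0.05). The strains were compared at each concentration, *osm-9(ok1677)* against N2, and 200 mM was compared with 51 mM NaCl in each strain, together with the interaction. Alternatives were DESeq2 1.42.0, size factors in place of TMM, stricter or no filtering, edgeR's exact test, fits of 2 groups alone, a replicate block and leaving out each library. The fit without *osm-9(ok1677)* libraries 2 and 3 was chosen after seeing the data. The test was checked on simulated counts with changes of known size. For 200 against 51 mM NaCl in N2 it called 15 of 100 changes of log2 1 and 64 of 100 of log2 2. For the interaction it called 3 and 43 of 100.

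The replicate numbers of the labels pair the *osm-9(ok1677)* libraries at 200 and 51 mM NaCl: after removal of group means, same-numbered libraries correlated across loci with r of 0.774, 0.614, 0.867 and 0.689. This check uses the data, not a stated pairing. Each N2 comparison has only 2 shared numbers. No 2 libraries of a group agreed within sampling noise. Positions and exon lengths come from Ensembl's WBcel235 annotation, in which all 83 members were found.

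Named genes are, for each comparison of 2 groups, the 12 largest changes among members that passed and did not overlap, the most abundant locus of each family per exon length, and 16 core genes. Other members serve as examples. The genes, the lists of other fatty acid genes and the marker lists were chosen with earlier results of these data known.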

Additional observations from a re-analysis of the deposited data

Results flagged for a closer look

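Within groups of 4 libraries, 7 of 68 sets of values examined for the named genes had 1 library far from the other 3 by Dixon's test, which flags about 1 in 20 such groups by chance. Of these 7, 4 are *osm-9(ok1677)* library 1 at 51 mM NaCl: *elo-5* at 387.7 CPM (others 154 to 169.8 CPM), *elo-2* at 188.9 CPM (others 128 to 130.2 CPM), *acdh-2* at 75.8 CPM (others 38.7 to 42.0 CPM) and *cpt-5* at 22 CPM (others 11.2 to 13 CPM). In each of these 4 genes library 1 was the one nearest to N2. At 200 mM NaCl *osm-9(ok1677)* library 1 was highest for *hacd-1*, at 82 CPM (others 58.1 to 58.8 CPM), and lowest for *lipl-5*, at 142.1 CPM (others 218 to 230.0 CPM), and library 3 was highest for *ech-8*, at 16.6 CPM (others 10.2 to 11 CPM).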

How the results depend on the processing

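Of 30 named results, none reversed in any alternative, 7 kept their call in all of them and 23 lost it in at least 1 of up to 20. In the order *osm-9(ok1677)* against N2 at 51 mM, at 200 mM, 200 against 51 mM NaCl in *osm-9(ok1677)* and in N2, members passing numbered 15, 17, 3 and 3. With the replicate block they numbered 36, 37, 13 and 13, by DESeq2 24, 25, 7 and 7, by the exact test 18, 23, 7 and 10, with only the 2 groups 8, 13, 3 and 1, without adjustment of p 39, 44, 18 and 20, with at least 10 counts in every library 11, 10, 2 and 2, and without *osm-9(ok1677)* libraries 2 and 3 25, 27, 0 and 3. Leaving out 1 library gave 3 to 20, 5 to 19, 2 to 3 and 2 to 3. Of all 15403 loci, 4480, 3677, 858 and 764 passed without adjustment of p, in the same order. For DESeq2, the exact test, the fits of 2 groups, the stricter filter and single left-out libraries no share of all loci is given, so those counts are not set against one. In the interaction DESeq2 called 1, and 5 passed without adjustment of p. Of the 59 pathway genes 9, 5, 0 and 0 passed. With the replicate block 15, 13, 3 and 3 did, by DESeq2 13, 13, 2 and 1, by the exact test 6, 10, 2 and 1, with only the 2 groups 4, 6, 0 and 0, unadjusted 17, 19, 8 and 11, without libraries 2 and 3 4, 3, 0 and 0, and leaving out 1 library 0 to 9, 1 to 6, 0 to 1 and 0. The cause of these shifts was not tested. The block for comparisons with N2 rests on 2 shared numbers, whose libraries correlated with r between 0.201 and 0.621. With 2 N2 libraries a group, *lipl-1*, *lipl-6*, *lbp-8* and *cpt-3* rest on 5 to 28 counts a library in their low groups.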
